A study of Homo sapiens with 4 samples.

Results

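The cytosolic chaperonin TRiC, also called CCT, was examined through the splicing of its subunit genes TCP1, CCT2, CCT3, CCT4, CCT5, CCT6A, CCT7 and CCT8. The members were all skipped exon events of these 8 genes with a mean of at least 20 junction reads over 4 libraries, which gave 84 of the 54503 events tested. A skipped exon event is a set of 3 neighbouring exons whose middle exon is either spliced in or left out, and junction reads are reads that cross a splice. The genes were chosen by the measured inclusion levels and deposited FDR of 1 deep CCT4 event, which differed slightly between the 2 sets of libraries, so the values of that event are given as a description, with no p of its own, and counts of calls that include it support nothing.

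The cells were HEK293T, a human embryonic kidney line. Per the labels, 2 libraries were from cells treated with an antisense oligonucleotide (ASO) against SNORD89, a C/D box small nucleolar RNA, and 2 from cells with treatment given as none. The ASO was a 5-10-5 MOE gapmer, a chemically modified strand that directs RNase H to the RNA it pairs with, transfected at 70 nM. All 4 samples carry the same transfection protocol, with medium replaced at 24 hours and RNA taken at 48 hours, so it is not clear whether the cells without ASO received the lipid reagent, and no control ASO is named. All samples are labelled as biological replicates of this 1 line, and nothing says that they came from separate experiments. Neither the table's columns nor the labels tie a set of the table to a treatment. The deposited table's title puts SNORD89 first, which was not taken as an assignment. The groups are therefore called the first set and the second set, with libraries 1 and 2 named by their place in the table, and no direction below can be read as an effect of the ASO.

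TRiC is a double-ring complex that binds unfolded proteins and closes over them in a cycle driven by ATP. Each ring holds 1 copy of each of the 8 subunits, which share a common fold and differ mainly in the surface that contacts the client. Actin and tubulin are its best known clients, and prefoldin delivers many of them. Because each subunit has a fixed place in the ring, cells need all 8, and proliferating cells such as HEK293T express them abundantly.

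The exons on which the results turn are shown here 5′ to 3′. The letters were read from GENCODE release 29 transcripts, which use GRCh38, after a match by exon spacing, while the positions are those of the deposited table in hg19. The first is the CCT4 exon that led to the choice of genes, at chr2:62115159-62115392 on the minus strand, with the first stop codon in frame with CCT4 exon 1 in capitals. The next 4 are coding exons with low but repeated skipping: CCT6A at chr7:56122062-56122196 (plus strand), CCT3 at chr1:156304659-156304709 and chr1:156304504-156304566 (minus strand), and CCT5 at chr5:10254786-10254950 (plus strand). Capitals in the CCT5 exon mark a nested 73-nt form that starts later in the exon.
CCT4, 234 nt: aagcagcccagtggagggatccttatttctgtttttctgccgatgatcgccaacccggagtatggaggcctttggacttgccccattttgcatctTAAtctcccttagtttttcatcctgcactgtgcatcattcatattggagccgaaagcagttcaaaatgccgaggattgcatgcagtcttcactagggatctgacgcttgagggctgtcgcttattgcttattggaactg
CCT6A, 135 nt: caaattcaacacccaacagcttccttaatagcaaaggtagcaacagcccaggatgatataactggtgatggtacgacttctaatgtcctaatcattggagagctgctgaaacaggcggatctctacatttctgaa
CCT3, 51 nt: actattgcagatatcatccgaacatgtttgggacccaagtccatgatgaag
CCT3, 63 nt: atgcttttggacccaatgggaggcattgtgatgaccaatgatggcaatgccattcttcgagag
CCT5, 165 nt: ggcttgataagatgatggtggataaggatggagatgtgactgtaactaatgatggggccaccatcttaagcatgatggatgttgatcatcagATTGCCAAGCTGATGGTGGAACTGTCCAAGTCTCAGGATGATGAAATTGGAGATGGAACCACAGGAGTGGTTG

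The table held 38613055, 39012939, 42868431 and 43929373 junction reads in the 4 libraries, in the order first set library 1, first set library 2, second set library 1, second set library 2, which is kept throughout. Library 2 of the second set stood apart: 3280 of its events had no reads, against 513 to 624 in the other 3. Of the cell line's markers, VIM had 1 event, at a mean of 4605 reads, and KRT8 had 1, at 34.75. KRT18, NEFM, NEFL and the markers of blood, liver, fibroblasts and endothelium had no event, which in a list of skipped exon events is not a level. SNORD89 itself was not analysed here.

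Nearly all tested events of the subunit genes had 1 dominant form. Of their 91 events, 84 passed the read minimum and 7 did not, and the 84 covered 65 distinct exons. Some of these exons overlap, and grouped by overlap they number 61. TCP1 had 11 tested events, CCT2 had 5, CCT3 had 16, CCT4 had 15, CCT5 had 5, CCT6A had 8, CCT7 had 18 and CCT8 had 6. The inclusion level, the length-corrected share of transcripts with the middle exon, was over 0.95 in 73 of the 84 (86.9%, against 66.1% of all tested events), under 0.05 in 8 and between in 3. Coverage was deep, with a median of 4489.5 reads per event against 190 over all tested events. By the differences in the authors' deposited table, 80 of the 84 events were apart by less than 0.01 between the sets, and 81 had a false discovery rate (FDR) of 1. The median size of the deposited difference was 0, against 0.011 over all tested events. The counts of 80 and 81 were not taken over all tested events, and nothing was compared at like depth. None of these values is therefore read as a trait of the subunits.

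By the deposited FDR under 0.05, 1 of the 84 events was called, the CCT4 event, where 5.72% of all tested events were called. It was lower in the first set (2.68% of all tested events), and no member was called higher there (3.03%). None of the 84 combined that FDR with a difference of at least 0.1 in inclusion level, which 2.71% of all tested events did. A quasi-binomial test on the reads, whose error in the form reported is a dispersion shared by events of like depth and not the event's own, counted 1 of the 84, again that event (0.00183% of all tested events, that is 1). That count depended on the form of the test. With the dispersion never under the event's own, 0 events passed, with 1062 of all events and 1 member event at an unadjusted p under 0.05. With the dispersion prior taken over all tested events, as first planned, 0 events passed, members and others alike, with 4194 of all events and 6 member events at an unadjusted p under 0.05. The prior was then revised, the last time after output on these reads had been seen. In the form reported 1 member event had an unadjusted p under 0.05 (2.89% of all tested events). The limma test on log2 ratios called 0 events, with 2646 of all events and 4 member events at an unadjusted p under 0.05, and its weighted form called 126 events (0.231%), of which 1 was a member. Since the genes were chosen for this event, nothing is read from these counts. The levels of the sets did not overlap in 21 of the 84 events (22.8% of all tested events), 9 higher in the first set (9.29%) and 12 lower (13.5%), and 19 of the 21 differed by less than 0.005.

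CCT4 encodes the delta subunit. Its 234-nt exon lies in the first intron the table covers, 123 nt from the upstream exon and 2951 nt from the downstream one, and it is left out of most transcripts. Inclusion was read by 579, 786, 994 and 855 junction reads and skipping by 5053, 5097, 4482 and 3856. The inclusion level was 5.42% (5.00 to 5.88) and 7.16% (6.68 to 7.67) for the first set, where parentheses hold 95% Wilson intervals. It was 9.98% (9.38 to 10.6) and 9.98% (9.33 to 10.7) in the second set. Both libraries of the second set were higher than both of the first, and the 2 libraries of the first set themselves lay 1.74 points apart. The means were 6.29% ± 1.23 and 9.98% ± 0.00125 (SD, n = 2 each), 3.69 points or 1.59-fold apart, and the smallest gap between a library of one set and a library of the other was 2.82 points. The authors' deposited table gives this event a difference of -0.037 and an FDR of 0.000417, the values for which the genes were chosen. The intervals cover counting error only.

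Scaled to the library total, the sets were apart in skipping reads of the CCT4 splice and overlapped in inclusion reads. Which form differs can depend on the scaling. When libraries were scaled by the median ratio over all genes, the log2 ratio of CCT4 coverage, first set to second, moved from 0.33 to -0.06. The reads of the 2 forms were not rescaled in that way. Per 1000000 junction reads of the library, inclusion reads numbered 15.04, 20.2, 23.2 and 19.5. Skipping reads numbered 131.3, 131.0, 104.8 and 87.9 and were lower in both libraries of the second set. The event ranked 6 in depth among the 15 tested CCT4 events. Among 451 events of the whole table with at least 1000 reads and a level between 0.05 and 0.95, a group chosen after the data were seen, 26 had a deposited FDR under 0.05 (5.76%), 171 had sets that did not overlap (37.9%), and 53 had a larger difference.

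The CCT4 exon shown above spans the length of 78 codons but is not open. Read in the frame of CCT4 exon 1, with 1 base carried over, it holds 1 stop, TAA at bases 96 to 98. GENCODE release 29 has no exon with these ends. Its 5′ end is that of a 310-nt exon of the processed transcript ENST00000461370.1, which carries no coding sequence. Whether the form that includes it is translated or degraded was not tested. CCT4 overlaps COMMD1 and the antisense gene AC107081.2 on the opposite strand, and the sources used here do not say whether reads were assigned by strand.

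With 7 further exons of this kind, 8 exons in 6 genes were included in a minority of transcripts. All 8 lay within a deeply read splice and upstream of every mainly included tested exon of their gene. None was coding over its whole length in GENCODE release 29, and 4 of the 8 had a length divisible by 3, against 20 of the 57 mainly included exons. Some of those 57 overlap, such as the CCT5 165-nt exon and its nested 73-nt form. Apart from CCT4, none reached 0.6% in any library. A 259-nt exon of CCT2, the beta subunit, was included at 0.175%, 0.460%, 0.497% and 0.578%. The first set library 1 was the lowest of these, and the set means differed by less than the first set's own libraries did. A 113-nt exon of CCT3, the gamma subunit, was included at 0.453%, 0.474%, 0.447% and 0.399%, near the same level in every library. The second CCT3 exon, of 162 nt, was included at 0.0325%, 0.0246%, 0.163% and 0.0362%, with second set library 1 above the rest.

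In CCT7, the eta subunit, a 96-nt exon was included at 0.170%, 0.126%, 0.0261% and 0.0504%, higher in both libraries of the first set. Its 136-nt exon was at 0.0400%, 0%, 0.0673% and 0.0541%. The 0 came from 3847 reads, which allows a raw read share of up to 0.0780%, and the Wilson limit of the level was 0.0522%. A 37-nt exon of CCT8, the theta subunit, was at 0.149%, 0.283%, 0.0804% and 0%. The last came from 2001 reads, which allows a raw read share of up to 0.150%, with a Wilson limit of 0.154%. An 87-nt exon of TCP1, the alpha subunit, was at 0.124%, 0.0280%, 0.0559% and 0%. The last came from 3169 reads, which allows a raw read share of up to 0.0947%, with a Wilson limit of 0.0765%. These shares rest on few reads, and none of these events had a deposited FDR under 0.05.

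**Figure D1:**
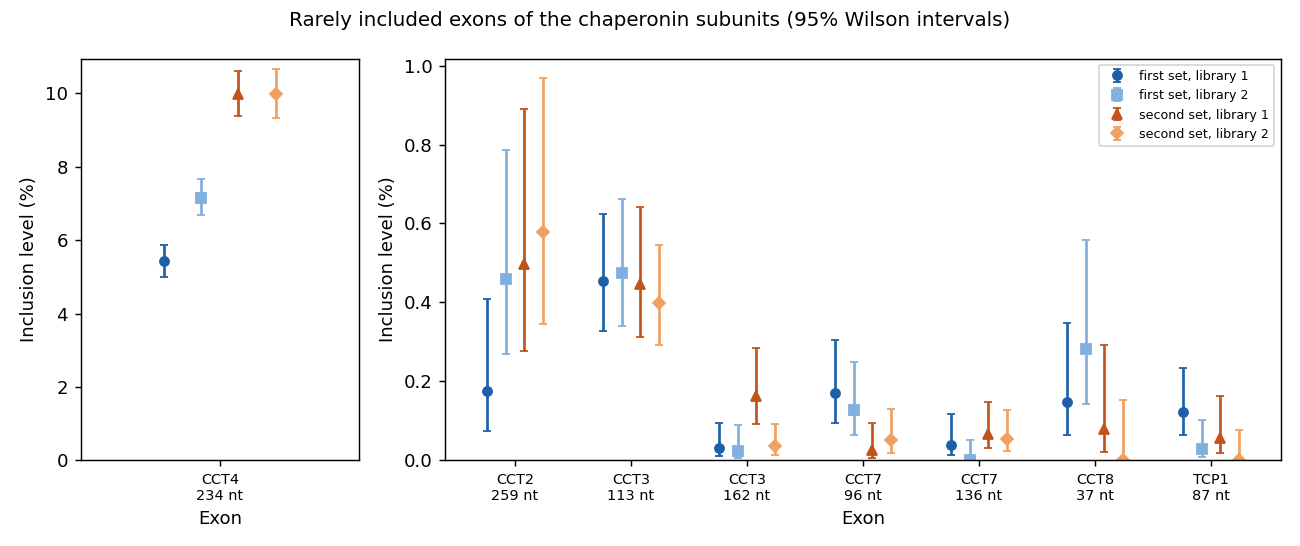
Inclusion level in percent of the rarely included subunit exons in each of the 4 libraries, with bars for 95% Wilson intervals. The CCT4 exon lies between 5.42% and 9.98%, while every other exon stays under 0.6%.

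The other 2 events between 0.05 and 0.95 were shallow. In its 1 tested event, a 129-nt coding exon of TCP1 at chr6:160208775-160208903 was included at 62.9%, 75.5%, 34.9% and 58.8%, from 25, 27, 26 and 11 reads. The sets did not overlap, but the deposited FDR was 0.288 for a difference of 0.223. The exon also flanks deeper TCP1 events, at means of 4962.5 and 5656 reads, while the junction that skips it had 26 reads in all. The levels of the shallow event are therefore not the exon's share of all TCP1 transcripts. A 126-nt coding exon of CCT7, at chr2:73470132-73470257, is near-constitutive, with a level of 0.999947 in its deepest event, at a mean of 9077.5 reads. In 1 shallow event with other flanking exons, at 36.25 reads, it was included at 23.0%, 32.5%, 30.1% and 20.4%, with the sets overlapping, a deposited difference of 0.025 and an FDR of 1. The read minimum fell among such events: the TCP1 event had a mean of 22.25 reads and a CCT7 157-nt event 22.5, just inside, while another event on the CCT7 126-nt exon, at 18.25 reads, was just outside. A second CCT8 37-nt event had a deposited difference of 0.298 and an FDR of 0.00465 but a mean of only 7.75 reads, and it was not counted.

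Among the mainly included exons, several were skipped at a low level in every library, and those described below are a selection. Among those not described, mean skipped shares were 0.807% and 0.721% for the CCT7 172-nt and 154-nt exons. They were 0.623% and 0.542% for the CCT4 235-nt and 53-nt exons, above the TCP1 86-nt exon described below. The 135-nt exon of CCT6A, the zeta subunit, was skipped at 1.71%, 2.16%, 2.44% and 2.23%, from 61, 76, 66 and 62 skipping reads. The lowest value was in the first set, and its 2 libraries differed by more than its higher one did from the second set. Its length is a multiple of 3 and the printed sequence has no stop in frame. The 51-nt and 63-nt exons of CCT3 were skipped together by 1 junction with 28, 16, 17 and 33 reads. The resulting skipped shares were 1.47%, 0.969%, 1.13% and 1.5% for the first exon and 1.75%, 1.13%, 1.52% and 2.14% for the second, with overlapping sets. In these events inclusion reads numbered 2520, 2196, 1996 and 2909, and 2231, 1991, 1563 and 2147. The deepest events, in which each exon flanks the other, had 9230, 8112, 6948 and 10076, and 8835, 7802, 6472 and 9248. The shares thus depend on the flanking exons, and against the deeper inclusion reads they would be lower. Both lengths are multiples of 3.

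The 165-nt exon of CCT5, the epsilon subunit, was skipped at 0.883%, 0.815%, 0.757% and 0.968%, from 31, 28, 25 and 35 reads, with overlapping sets. Its nested 73-nt form shares the skipping junction and gave 2.65%, 2.42%, 2.33% and 3.25%. The skipping reads are the same, and the higher share comes from fewer inclusion reads. Both forms end at the same base, so reads of the shared downstream splice can count for either. These values therefore do not show that the 73-nt form is used. Inclusion reads were 1695, 1684, 1563 and 1551 for the 73-nt form, against 6961, 6816, 6558 and 7164 for the 165-nt exon. An 86-nt exon of TCP1 was skipped at 0.387%, 0.451%, 0.427% and 0.50%. In each of these exons the 2 libraries of at least 1 set differed by more than the set means did.

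**Figure D2:**
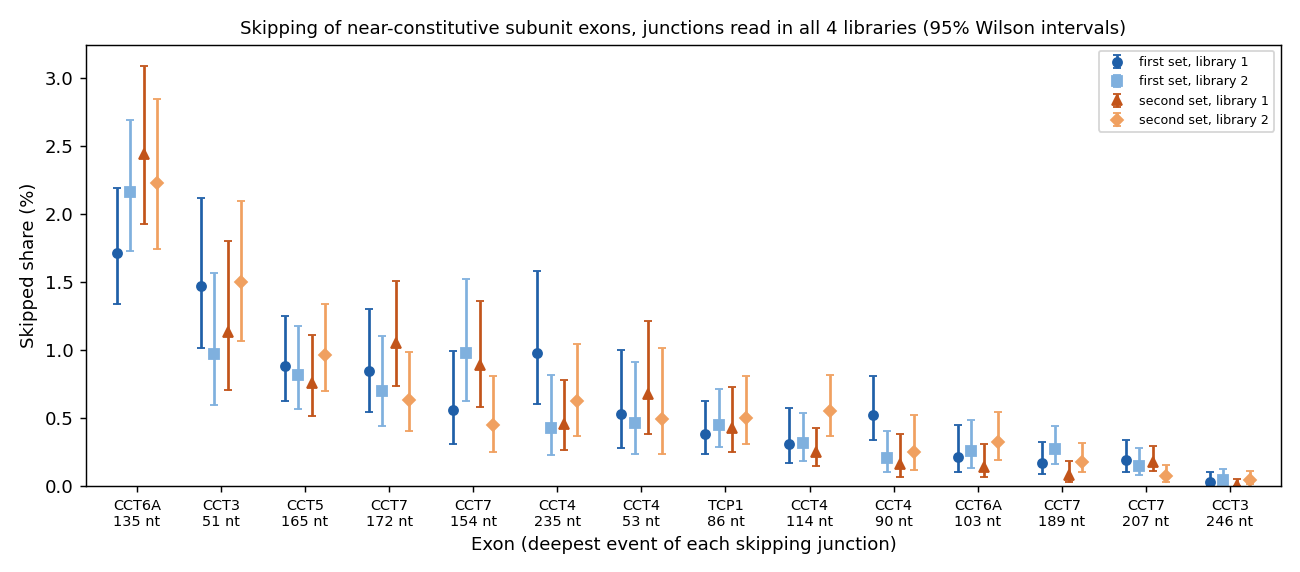
Skipped share in percent, per library, of near-constitutive subunit exons whose skipping junction was read in all 4 libraries, with 95% Wilson intervals and only the deepest event of each junction, so that the nested CCT5 73-nt form is not plotted. Of the exons plotted, the CCT6A 135-nt exon has the highest mean, at 1.71% to 2.44%.

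Most junctions that skipped a subunit exon were at the edge of detection. Of 65 distinct skipping junctions with under 1000 reads in all, 15 were read in every library, and 8 of those 15 were annotated, against 14 of all 65. Reads summed over the 65 were 328, 318, 322 and 303, of which the 15 held 257, 255, 254 and 268. The number of these junctions with no read was 27, 24, 22 and 43, so second set library 2 had the most. The same library had no read at 58.4% of the comparable junctions of all genes, against 35.9%, 34.8% and 32.6% in the others. The median skipped share over the 57 mainly included exons was 0.0340%, 0.0469%, 0.0419% and 0%, and that over all 35415 such exons was 0.791%, 0.662%, 0.318% and 0%. What sets library 2 of the second set apart was not tested.

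All 8 subunit genes were highly covered. Coverage is given as the median over a gene's exons of reads per junction, per 1000000 such reads of the library, which does not grow with gene length. CCT3 stood at 285, 252, 211 and 300, CCT7 at 242, 238, 259 and 269, and CCT5 at 238, 247, 262 and 251. The other 5 ran lower in every library: CCT2 at 160, 165, 176 and 192, CCT4 at 188, 196, 162 and 143, CCT6A at 161, 159, 125 and 134, TCP1 at 151, 148, 128 and 134, and CCT8 at 128, 130, 120 and 120. That gap was the only one between neighbours in the order of means at which every library of the higher gene lay above every library of the lower one. All 8 lay between the 96.3 and 98.4 percentile of 9982 genes.

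**Figure D3:**
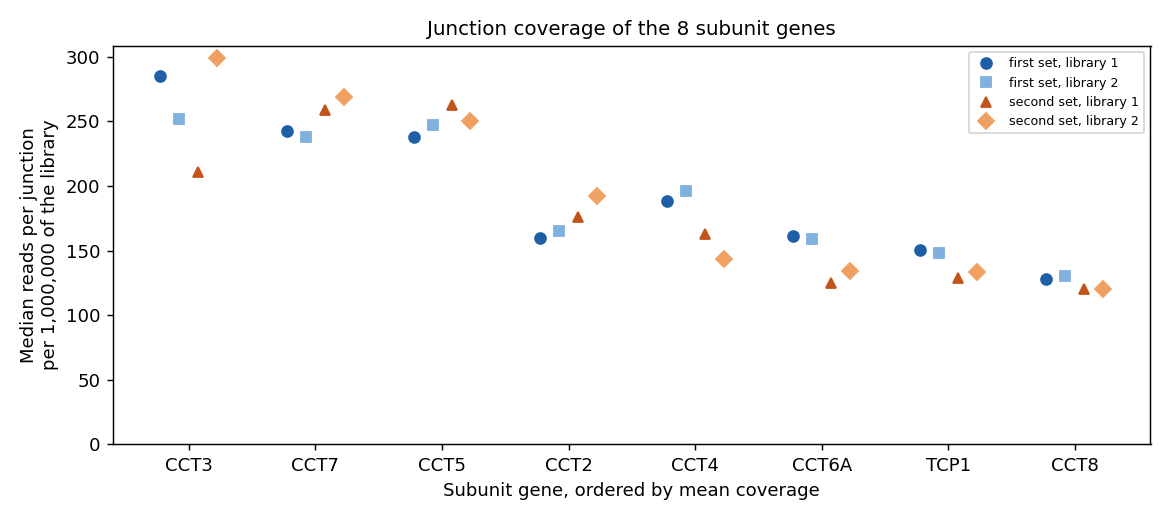
Median reads per junction per 1000000 reads of the library for each subunit gene, ordered by mean, 1 point per library. CCT3, CCT7 and CCT5 lie at 211 or more in every library and the other 5 genes at 196 or less.

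The size and direction of the coverage difference between the sets depended on the scaling. Scaled to the library total, the log2 ratio of the first set to the second was 0.19 for TCP1, -0.18 for CCT2, 0.07 for CCT3, 0.33 for CCT4, -0.08 for CCT5, 0.30 for CCT6A, -0.14 for CCT7 and 0.10 for CCT8. The median was 0.09, against 0.38 over all genes and -0.26 over the 212 genes between the lowest and highest member. When libraries were scaled by the median ratio over all genes, the ratio was below 0 for all 8, from -0.57 for CCT2 to -0.06 for CCT4, with the median of all genes at -0.01. The 5 genes above 0 thus changed direction and CCT2, CCT5 and CCT7 did not. The sets did not overlap in 7 of the 8 genes, but neither did they in 72.7% of all genes. Coverage here is relative to the other genes of the library, so it does not give the amount of RNA per cell.

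Coverage moved along the genes. The ratio of the 3′-most to the 5′-most tested exon, a measure chosen after the data were seen, was higher in the second set in all 8 genes, without overlap in 7 of 8 (54.8% of 4454 genes), CCT7 being the exception. TCP1 had ratios of 0.427, 0.473, 0.827 and 0.951, a 1.97-fold difference. CCT8 had 0.944, 1.17, 1.80 and 1.75, a 1.69-fold difference. CCT4 had 0.527, 0.662, 0.974 and 0.900, a 1.58-fold difference. CCT2 (1.57), CCT6A (1.51), CCT3 (1.46) and CCT5 (1.32) followed, with CCT7 at 1.10. The median fold was 1.54, against 1.34 over all genes, of which 83.0% were higher in the second set. The CCT4 exon with the difference in level is itself the 5′-most tested exon of its gene, and the part of this change in that difference was not tested.

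**Figure D4:**
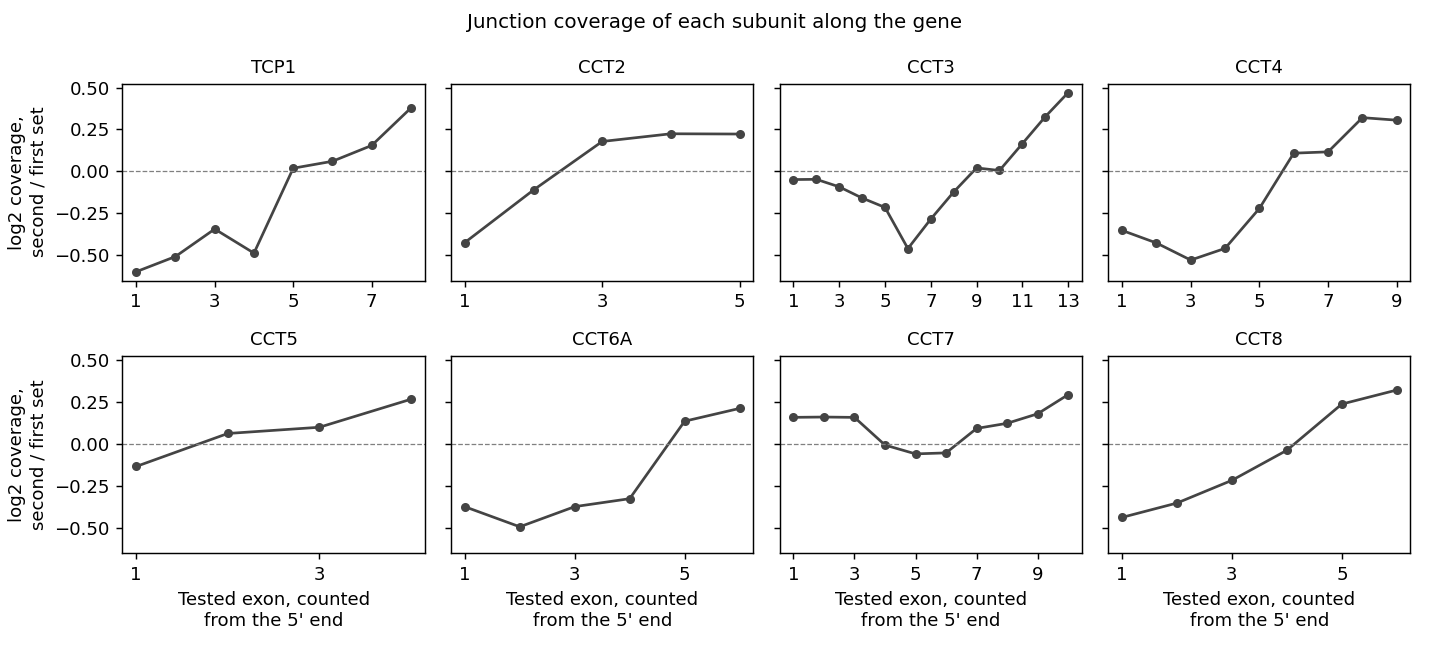
Log2 ratio of junction coverage scaled to the library total, second set over first set, 1 point per tested exon in order from the 5′ end. Whether a point lies above or below 0 can depend on that scaling. In TCP1 the ratio at the 5′-most exon is -0.60.

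**Figure D5:**
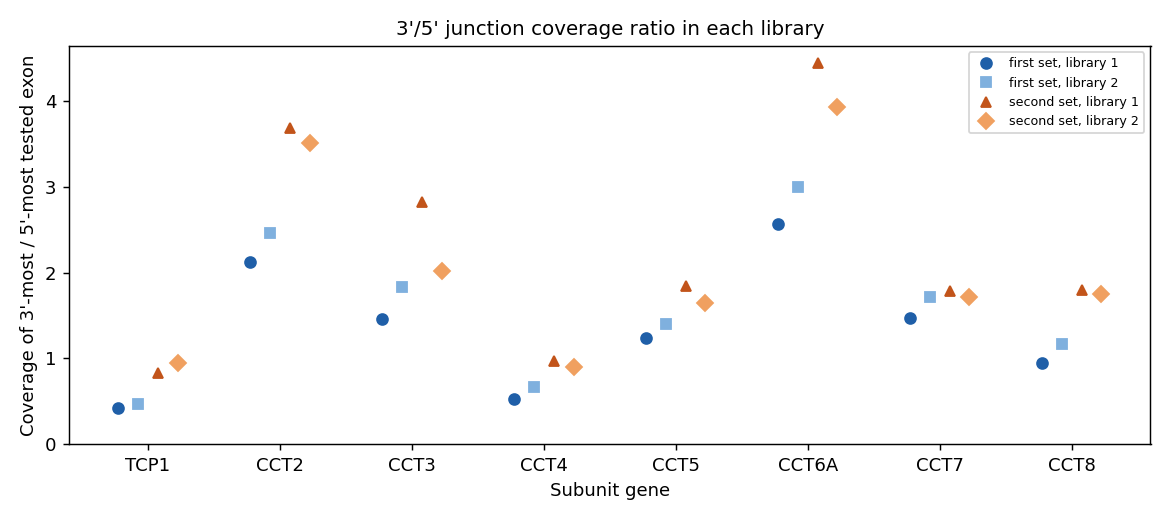
Ratio of junction coverage at the 3′-most tested exon to that at the 5′-most, per subunit and library. The second set lies above the first in 7 of 8 genes, and in CCT7 the libraries overlap.

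Genes that work with the chaperonin were taken from a list of 34, of which 29 had tested events, 149 in all. By the deposited FDR 3 of the 149 were called, beside 5.72% of all tested events, and all 3 were higher in the first set, beside 3.03%. None had a difference of at least 0.1 (2.71% of all tested events) or passed the quasi-binomial test, where 1 event had an unadjusted p under 0.05 (2.89% of all tested events), and limma, plain or weighted, called 0. PFDN5, a subunit of prefoldin, had a 103-nt exon at 98.4%, 98.3%, 96.5% and 96.7%, a difference of 0.018 with an FDR of 0.0378, and the sets did not overlap. VHL, a tumour suppressor that TRiC folds, had a 123-nt exon at 96.7%, 95.3%, 94.3% and 87.4%, a difference of 0.051 with an FDR of 0.0137. Its sets did not overlap either, and second set library 2 was the lowest. HSPA14, an HSP70 family member, had a 162-nt exon at 98.6%, 99.0%, 98.9% and 92.8%, a difference of 0.029 with an FDR of 0.0284, but the sets overlapped and the call rests on second set library 2. Of the 52 events of the cofactors 0 were called by the deposited FDR or by the quasi-binomial test, with 0 at an unadjusted p under 0.05. The deepest events of PFDN2, TBCA, the chaperone HSP90AA1 and the client ACTB were included at over 99.6% in every library, each with a deposited FDR of 1.

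Nearby genes and copies limit what can be assigned. TCP1 hosts SNORA20 and SNORA29 and overlaps ACAT2 on the opposite strand, and CCT6A hosts SNORA15 and SNORA22B. CCT3 overlaps TSACC, and CCT5 overlaps AC012640.4, both on the opposite strand. CCT8 overlaps AF129075.1, a sense intronic gene on the same strand. CCT6B, the testis-enriched relative of CCT6A, had no tested event, while the pseudogene CCT6P1 had 2.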

How the data were processed

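RNA-seq of HEK293T cells was analysed through 1 table of skipped exon events in the layout of rMATS, per the file headers; the rMATS version and annotation are not given in the sources used here. STAR, cutadapt and hg19 are named in the submitters' processing notes, with no versions. The deposited cells hold junction read counts of inclusion and skipping for 2 libraries in each of 2 sets, and inclusion levels as a fraction, made by the authors with the effective length of each form. The authors' p-value, FDR and score of difference (first set minus second) are in the deposited table. Columns name no sample, so sets were compared as the table orders them.

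Events with a mean of at least 20 reads were tested. Levels were recomputed from the reads, with 95% Wilson intervals carried to the length-corrected level. For a 0, a limit of 3 counts was also given, as a raw share of reads without length correction. Adjusted p-values used Benjamini-Hochberg over all tested events. The main test was a quasi-binomial model with the Pearson dispersion moderated over events by limma 3.58.1 (R 4.3.3) and never under 1. Its form was revised after that plan. The form as first planned, with the dispersion prior over all tested events, recovered none of the changes put into simulated reads and called 0 events. The first revision took the prior from events with at least 2 expected reads of the rarer form in each library and called 1 event, with 1750 at an unadjusted p under 0.05. The second, reported as the main test, let the prior follow the depth of the rarer form. It was made after output on the real reads had been seen and called 1 event, with 1576 unadjusted. Both calls are the CCT4 event. In the reported form the event's own dispersion does not enter, since the prior took infinite weight. With the dispersion never under the event's own, 0 events passed (1062 unadjusted). limma on log2 ratios with a pseudocount of 0.5, plain and weighted, was run beside it.

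The genes, lists and tests were chosen with earlier results of these data known. Named were all 8 subunits, every member event with a deposited FDR under 0.05, a difference of at least 0.1 or a level between 0.05 and 0.95, and, of the pathway list, genes with such an FDR and the deepest event of each class; the low-level exons were picked after their values were seen. The CCT4 event was planned as the gene's deepest but is not. GENCODE release 29 gave annotation by exon spacing, with 64 of 65 exons matched. Python 3.11.15, numpy 2.4.6, pandas 2.3.3 and scipy 1.17.1 were used.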

Additional observations from a re-analysis of the deposited data

How the results depend on the processing

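The number of member events tested was 85 and 81 at read minimums of 10 and 50, and 65 with 1 event per exon. Counts by the deposited FDR stayed at 1, and at 0 with the difference limit, under every alternative run. The 1 is the CCT4 event that led to the choice of genes, so nothing is read from it. Leaving out a library could not turn the CCT4 difference, because the sets do not overlap there. Dropping the form lengths or summing the events on that exon left its value unchanged by construction. A skipped share is never below 0 and so has no direction to keep. The quasi-binomial count of 1 is the CCT4 event for which the genes were chosen, so nothing is read from where it held. The count was 1 at other read minimums, with no lower limit on the dispersion and with the prior from informative events only. With weighted limma in place of the quasi-binomial test, the member count was also 1. It was 0 with limma on the log2 ratio, 0 with the dispersion never under the event's own and 0 with the prior over all tested events. The last of these is the form first planned. The dispersion never under the event's own and the prior from informative events were chosen after the data were seen, as was the prior of the form reported. Leaving out each library gave 0 to 1, the 0 being without first set library 1, and without second set library 1 698 events passed over the whole table. Leave-one-out values of the CCT4 difference ran from -0.0456 to -0.0282, those of the median skipped share from 0.0253% to 0.0409%, and those of the log2 change in 3′ to 5′ coverage from 0.489 to 0.733 around 0.621. The median log2 coverage ratio of 0.088 ran from 0.0293 to 0.158 without each library, and turned to -0.300 with median-ratio scaling and to -0.245 with the maximum over exons; the cause was not tested. With 2 libraries a set, an exact permutation test of 1 value could not pass 0.05. No paired analysis was possible because the columns carry no replicate numbers, so the replicate block could not be fitted.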
